A study of Rattus norvegicus with 6 samples.

Results

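The potassium channel genes were taken as all genes of the expression table whose symbol begins with Kcn followed by a letter. This gave 89 of 17066 genes, after 1 inwardly rectifying channel gene was set aside, and all 89 were current RefSeq symbols. Expression was measured by RNA sequencing in primary hippocampal neurons of Sprague-Dawley rat embryos (embryonic day 18), grown in Neurobasal medium with B27. Every culture was infected on day 5 or 6 in vitro with a lentivirus made from the FUGW vector that carried EGFP, and RNA was collected on day 14. The virus expressed EGFP alone (EGFP, the control), wild-type cyclin Y with EGFP (CCNY-WT, overexpression), or a short hairpin RNA against cyclin Y together with EGFP (CCNY-shRNA, knockdown). Each of these 3 conditions was sequenced as 2 libraries, replicates 1 and 2. The question asked of the channel genes was whether their transcript levels differed when cyclin Y, a postsynaptic cyclin studied for its part in long-term potentiation, was raised or lowered.

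Potassium channels let potassium ions leave or enter the cell along their gradient and thereby set the resting potential, the shape of the action potential and the firing rate of a neuron. Voltage-gated (Kv) channels open on depolarization, calcium- and sodium-activated channels open when these ions accumulate inside the cell, inward rectifiers (Kir) pass current near rest, and K2P channels, whose subunits each carry a pair of pore domains, provide background leak. Silent Kv subunits form no channel alone and modify Kv2 channels, and auxiliary subunits change the gating or surface delivery of the pore-forming subunits. Of the 89 genes, 8 encoded Kv1, 2 Kv2, 3 Kv3, 3 Kv4, 4 Kv7, 8 EAG/ERG/ELK, 10 silent Kv, 7 calcium- or sodium-activated, 14 Kir and 13 K2P subunits, and 16 encoded auxiliary subunits. The remaining gene, Kcnrg, encodes a regulator of Kv channels.

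Levels are FPKM values, fragments scaled to transcript length and to the size of the library, so that different genes can be set side by side. No read counts accompany them, and depth relative to EGFP replicate 1, read from the steps in the FPKM values of low genes, ranged from 0.820 to 1.32. Between 9955 and 10002 genes per library reached an FPKM of 1. Ccny itself was measured at an FPKM of 43.1 and 42.3 (EGFP), 108 and 109 (CCNY-WT) and 5.98 and 6.19 (CCNY-shRNA), in the directions the labels give. Summed levels of 7 neuronal marker genes lay between 3345 and 3517 in all libraries. Those of 7 interneuron markers were 2176 and 2285 (EGFP), 2191 and 2216 (CCNY-WT) and 1872 and 2043 (CCNY-shRNA). The 6 astrocyte markers in the table summed to 372 and 387 (EGFP), 398 and 389 (CCNY-WT) and 307 and 377 (CCNY-shRNA). All 8 microglial markers stayed below an FPKM of 1 throughout, with Aif1 and Cx3cr1 at 0. In RNA from whole cultures, fewer cells of a type and less RNA per cell cannot be told apart. Nothing in the labels says that the 2 libraries of a condition came from separate cultures, so the tests measure the spread between these libraries, which may be technical.

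Most potassium channel genes were expressed in the control neurons. In EGFP, 38 of the 89 genes had a mean FPKM of at least 10 and 5 of at least 50, and 60 reached 1 in all 6 libraries. A further 24 stayed under 1 in every library, 5 of which (Kcna10, Kcne1, Kcnj1, Kcnj8 and Kcnmb1) were listed at 0 throughout. The 10 highest genes held 44.7% of the channel FPKM in EGFP.

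Kcnj4, a strong inward rectifier of the Kir2 group, headed the list with 85.2 and 93.2 in EGFP. Kcna1, a Kv1 subunit of axons, was at 86.3 and 77.6 and overlapped it, so that their order was not resolved. Kcnab2, the main Kv1 beta subunit of brain, at 74.1 and 67.8, and Kcnip2, a calcium-binding partner of Kv4 channels, at 67.2 and 70.7, lay lower and also overlapped each other. Also among the 10 highest were the silent subunit Kcng1, the Kv4 partner Kcnip3, the G protein-gated Kir subunit Kcnj3 and the ELK subunit Kcnh3. Their libraries lay close together, between 43.0 for the lower library of Kcnh3 and 49.3 for the higher library of Kcng1. The subunit with the highest mean over all libraries was Kcnd3 for Kv4 (43.2 and 43.7 in EGFP), Kcnn1, a small-conductance channel, for the calcium- and sodium-activated group (31.9 and 35.0), and Kcnk1, a weak leak channel, for K2P (32.1 and 33.8).

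**Figure D1:**
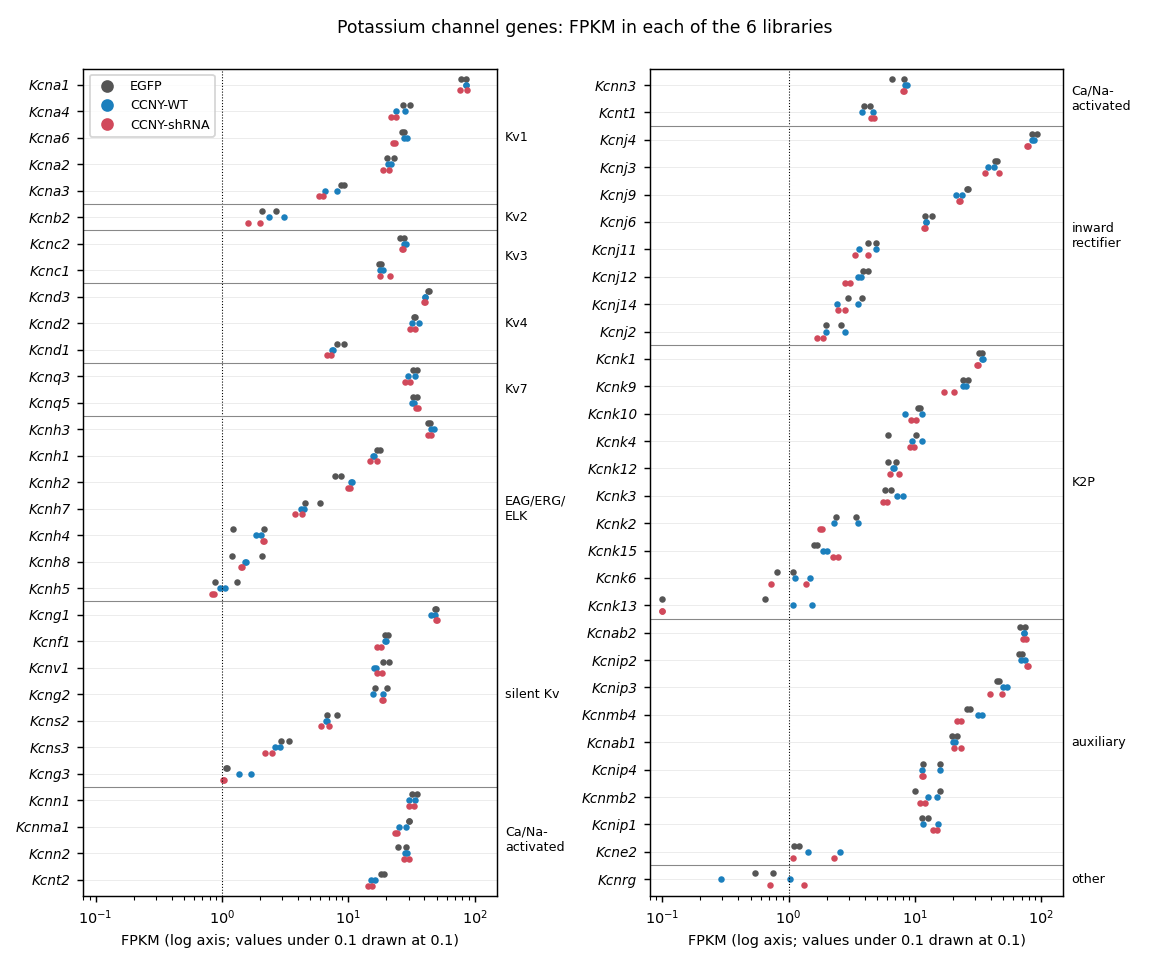
FPKM (log axis) of potassium channel genes that reached an FPKM of 1 in at least 2 libraries, grouped by subfamily and ordered by mean EGFP level. Each dot is 1 of the 6 libraries and the dotted line marks an FPKM of 1; the 3 conditions lie close together for nearly all genes above 10, and spread more for low genes such as Kcne2 and Kcnk13.

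The summed FPKM of the 89 genes was 1389 and 1400 (EGFP), 1396 and 1369 (CCNY-WT) and 1352 and 1293 (CCNY-shRNA). Both CCNY-shRNA libraries lay below all other libraries, while those of CCNY-WT and EGFP overlapped. The mean sum of CCNY-shRNA differed from that of EGFP by -5.17%, with -7.65% and -2.67% as the lowest and highest of the 4 pairings of single libraries. That of CCNY-WT differed by -0.833%. These are descriptions with no test.

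By subfamily, the mean sum in CCNY-shRNA was below that in EGFP for 9 of the 11 named groups as deposited. Kir genes summed to 187 ± 9.17 in EGFP and 166 ± 8.44 in CCNY-shRNA (-11.3%). Their 4 libraries did not overlap. Kv1 genes stood at 169 ± 4.41 and 154 ± 11.1 (-9.10%), K2P genes at 95.9 ± 2.24 and 87.4 ± 1.18 (-8.85%), and Kv7 genes at 153 ± 1.23 and 140 ± 4.79 (-8.40%). The sum of Kv3 genes, by contrast, was 89.6 ± 0.969 in EGFP and 94.1 ± 2.77 in CCNY-shRNA (4.92%), and that of the auxiliary subunits 274 ± 1.85 and 280 ± 0.0140 (2.15%). For EAG/ERG/ELK genes the difference of -0.744% turned to 0.563% when libraries were scaled to a common upper quartile. In CCNY-WT the auxiliary subunits summed to 294 ± 11.9 (7.57%) and the K2P genes to 101 ± 2.10 (5.66%), both with no overlap with EGFP. The lowest CCNY-WT values relative to EGFP were those of Kv7 genes, 141 ± 9.45 (-8.01%), Kir genes, 175 ± 6.16 (-6.53%), and silent Kv genes, 112 ± 0.431 (-6.38%). K2P genes thus had CCNY-WT sums above, and CCNY-shRNA sums below, both EGFP libraries. Much of the lower CCNY-shRNA sum lay in a single gene, Kcnk9, with a mean FPKM of 25.2 in EGFP and 18.8 in CCNY-shRNA. Among the 10 K2P genes tested singly below, the log2 change in CCNY-shRNA was positive for 4 and negative for 5. Their median was -0.04, so the lower sum does not describe the subfamily as a whole.

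**Figure D2:**
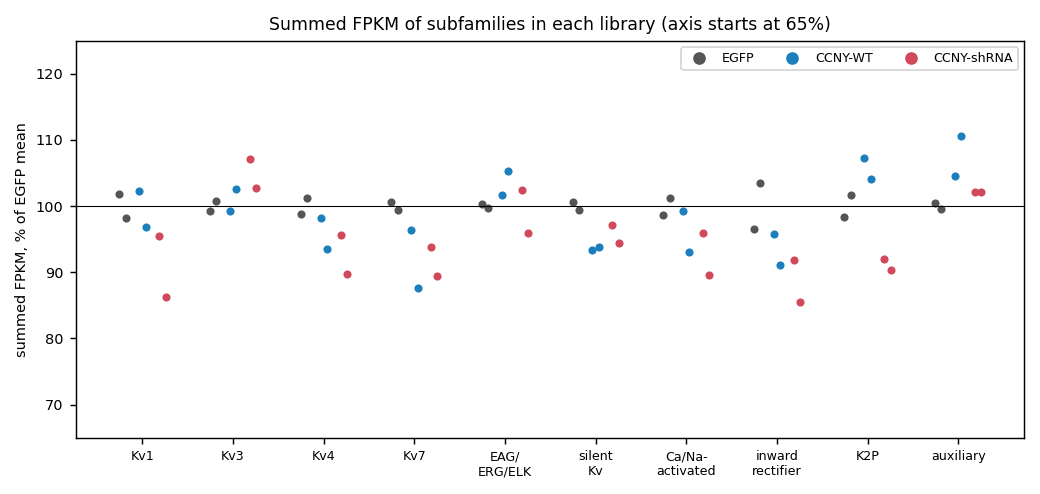
Summed FPKM of 10 subfamilies in each library, in percent of the mean of the 2 EGFP libraries, with 1 dot per library. The CCNY-shRNA dots lie below both EGFP dots for Kir, Kv1, K2P, Kv7, Kv4, silent Kv and calcium- or sodium-activated genes. They lie above them for auxiliary and Kv3 subunits, and overlap them for EAG/ERG/ELK genes.

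Single genes were tested on log2 FPKM, with values under 1 set to 1, by limma, a linear model that shares the estimate of spread across genes, across the 6 libraries. It covered the 10188 genes that reached an FPKM of 1 in 2 libraries or more, and p-values received Benjamini-Hochberg adjustment over all these genes, with a threshold of 0.05. Of the 89 channel genes 64 entered the test. In CCNY-shRNA against EGFP 0 of 64 passed, where 0.746% of all genes did. In CCNY-WT against EGFP 0 passed (0.00982% of all genes), and in CCNY-shRNA against CCNY-WT 0 passed (0.216% of all genes). Both comparisons with EGFP share the same 2 control libraries. No channel gene can therefore be said to have changed at this threshold, and the values that follow are given as sizes with their errors.

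At an unadjusted p under 0.05 in limma, 15 of 64 genes (23.4%) lay lower in CCNY-shRNA than in EGFP, against 9.36% of all genes tested, and 3 (4.69%) were higher, against 9.2%. For CCNY-WT the counts were 4 lower, against 3% of all genes, and 2 higher, against 3.83%. For CCNY-shRNA against CCNY-WT they were 8 lower, against 7.12%, and 0 higher, against 5.05%. At an adjusted p under 0.1, 2 genes lay lower in CCNY-shRNA than in the control (3.88% of all genes differed in either direction), 0 genes passed in CCNY-WT (0.0589%), and 1 passed between CCNY-shRNA and CCNY-WT (0.491%).

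The direction of the small differences was uneven. Relative to EGFP, 41 of 64 genes were lower in CCNY-shRNA, against 49.8% of all genes, and 22 were higher, against 50%. Both CCNY-shRNA libraries were below both EGFP libraries for 30 genes (46.9%), against 24.5% of all genes, and above them for 7 (10.9%), against 23.9%. The median log2 change of the channel genes was -0.11, with quartiles of -0.25 and 0.05, beside a median of 0 for all genes. In CCNY-WT, 34 of 64 were lower (48.6% of all genes) and 30 higher (51.3%), with 14 entirely below EGFP (19.2%) and 13 entirely above (20.3%), and the median was -0.02. Between CCNY-shRNA and CCNY-WT, 46 were lower (49.5%) and 18 higher (50.4%), with 26 entirely below (21.9%) and 7 entirely above (20.3%), and the median was -0.09. Kcnk13 entered the test only through its CCNY-WT libraries. It is in the counts above EGFP in CCNY-WT and in those below CCNY-WT in CCNY-shRNA. The interneuron marker sum, held mainly by Sst (1256 and 1311 in EGFP), was also lowest in the CCNY-shRNA libraries. Median log2 changes of the tested markers in CCNY-shRNA were -0.18 (interneuron), -0.17 (excitatory neuron), -0.16 (astrocyte) and -0.01 (neuron). The part of these cell types in the channel differences was not tested.

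By the size thresholds used in the study, which involve no test, 16 of the 89 genes differed from EGFP by at least 0.33 in mean log2 FPKM in CCNY-shRNA. Of these 13 were lower, against 4.58% of all 17066 genes, and 3 were higher, against 3.34%. All 16 were among the 64 tested genes, of which 20.3% were lower and 4.69% higher, against 7.59% and 5.52% of the 10188 genes tested. With the threshold of 0.3 used for CCNY-WT, 7 were higher, against 2.8%, and 0 were lower, against 2.31%. Among the genes tested these background shares were 4.59% and 3.76%. The 7 include Kcnk13, which reached an FPKM of 1 in CCNY-WT only. Kcne2 was the gene past both thresholds, higher in each. The study also names the cuffdiff program for its selection, which was not run here, so these counts need not match its gene lists.

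**Figure D3:**
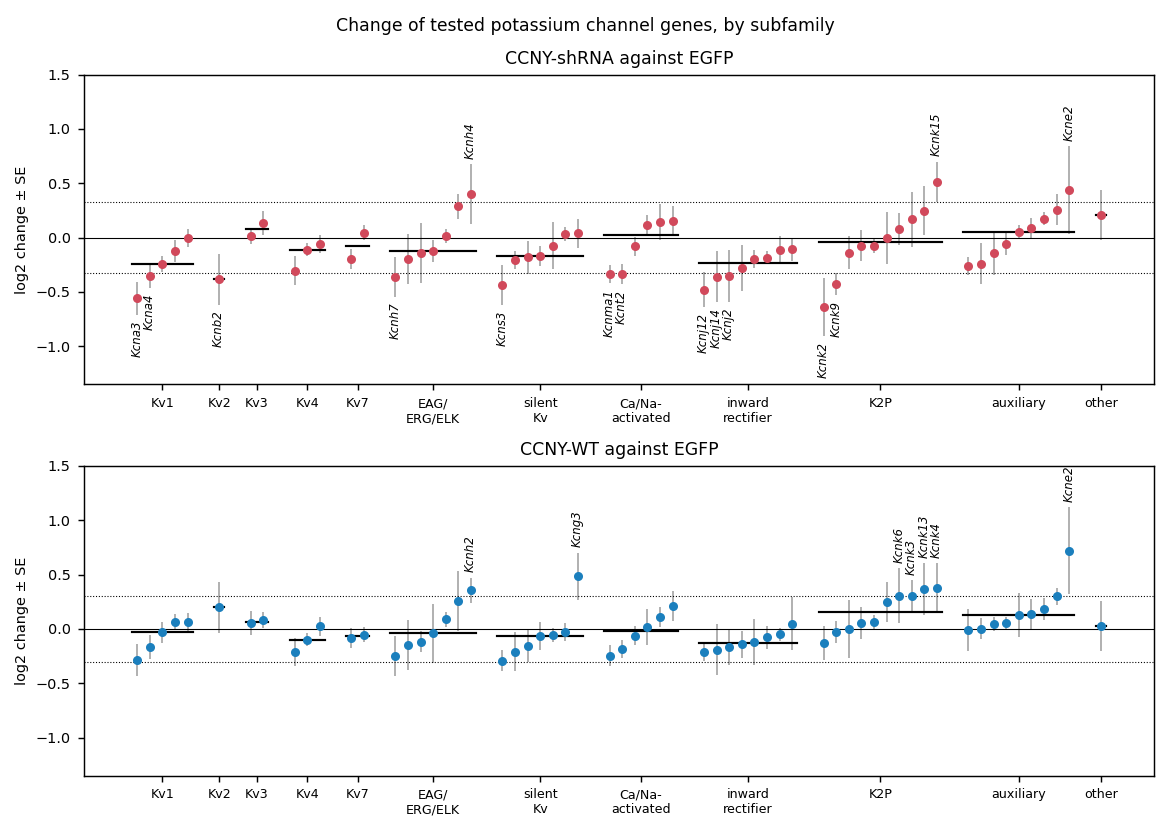
Log2 change from EGFP with its standard error for tested channel genes, by subfamily, for CCNY-shRNA (upper panel) and CCNY-WT (lower panel). Black bars mark medians of the points shown, dotted lines the thresholds of 0.33 and 0.3, and genes past them are named; points lie below 0 for all Kv1, Kv4 and Kir genes in CCNY-shRNA, and 0 genes lie below the lower line in CCNY-WT.

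Among the Kv1 genes all 5 tested had a log2 change below 0 in CCNY-shRNA, with 3 of them entirely below EGFP, against 49.8% and 24.5% of all genes tested. Kcna3, a slowly inactivating subunit best known from lymphocytes, was measured at 8.69 and 9.28 (EGFP), 8.20 and 6.60 (CCNY-WT) and 6.34 and 5.86 (CCNY-shRNA). Its libraries did not overlap between any pair of conditions, with the lowest levels in CCNY-shRNA. The log2 change was -0.56 in CCNY-shRNA (SE 0.149, limma adjusted p = 0.117) and -0.29 in CCNY-WT (adjusted p = 0.763). Kcna4, the A-type subunit of the group, stood at 27.3 and 31.0 (EGFP) against 24.0 and 21.6 (CCNY-shRNA), and Kcna6 at 26.7 and 27.5 against 22.6 and 23.3. Kcna1, the most abundant of the group, differed by -0.0031 on the log2 scale, with CCNY-shRNA libraries of 87.6 and 76.1 that spanned those of EGFP.

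Of the Kv2 delayed rectifiers, Kcnb2 had 2.69 and 2.07 (EGFP), 3.11 and 2.36 (CCNY-WT) and 2.01 and 1.62 (CCNY-shRNA). The CCNY-shRNA libraries were both below EGFP, with a log2 change of -0.38 (SE 0.236, limma adjusted p = 0.423).

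The Kv3, Kv4 and Kv7 genes serve fast repolarization, the dendritic A-current and the M-current. The Kv3 genes Kcnc1 and Kcnc2 had log2 changes of 0.13 and 0.02 in CCNY-shRNA. All 3 Kv4 genes had negative changes in CCNY-shRNA, against 49.8% of all genes tested. These ran from -0.30 for Kcnd1 (limma adjusted p = 0.269) to -0.06 for Kcnd2 (adjusted p = 0.760). Kcnq3, a subunit of the M-channel, was measured at 35.2 and 32.5 (EGFP), 34.0 and 29.96 (CCNY-WT) and 30.7 and 28.4 (CCNY-shRNA). Both CCNY-shRNA libraries were below EGFP, by -0.20 on the log2 scale (SE 0.0885, limma adjusted p = 0.288). Kcnq5 differed by 0.05.

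The EAG/ERG/ELK genes differed in no common direction. Kcnh2, the ERG channel known for cardiac repolarization, was at 7.87 and 8.75 (EGFP), 10.8 and 10.5 (CCNY-WT) and 9.89 and 10.4 (CCNY-shRNA). Both manipulated conditions lay above EGFP, by 0.36 on the log2 scale in CCNY-WT (SE 0.116, limma adjusted p = 0.725) and by 0.29 in CCNY-shRNA (adjusted p = 0.240). Kcnh7, the ERG subunit largely restricted to the nervous system, had lower means in both conditions than in EGFP, with 5.96 and 4.53 (EGFP), 4.49 and 4.25 (CCNY-WT) and 4.34 and 3.77 (CCNY-shRNA). Its change of -0.25 in CCNY-WT was -0.051 without EGFP replicate 1 and -0.45 without EGFP replicate 2. Kcnh4, an ELK subunit, had 1.22 and 2.16 (EGFP) against 2.13 and 2.17 (CCNY-shRNA), so that its log2 change of 0.40 rested on EGFP replicate 1 and was -0.0075 without it.

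Of the 7 silent Kv genes tested, 5 were below 0 in CCNY-shRNA and 6 in CCNY-WT, against 49.8% and 48.6% of all genes tested. Kcns3, a partner of Kv2 channels, was measured at 3.39 and 2.96 (EGFP), 2.62 and 2.87 (CCNY-WT) and 2.50 and 2.19 (CCNY-shRNA). The CCNY-shRNA change was -0.44 (SE 0.182, limma adjusted p = 0.252). Kcnv1, which lowers Kv2 currents, stood at 19.0 and 21.0 (EGFP), 16.7 and 15.9 (CCNY-WT) and 18.6 and 17.0 (CCNY-shRNA), and was entirely below EGFP in both conditions. Kcng3 was the silent gene above 0 in CCNY-WT, with 1.08 and 1.10 (EGFP) against 1.36 and 1.71 (CCNY-WT), a change of 0.49 (SE 0.216, adjusted p = 0.734).

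The calcium-activated channel of large conductance (BK) is described by its pore-forming and its beta subunit together. Kcnma1 encodes the pore-forming subunit and Kcnmb4 the beta subunit that is typical of neurons, where it slows the gating of the channel. Kcnma1 was at 30.1 and 30.5 (EGFP), 28.4 and 25.1 (CCNY-WT) and 24.5 and 23.4 (CCNY-shRNA). Its levels were thus highest in EGFP and lowest in CCNY-shRNA with no overlap, and the CCNY-shRNA change was -0.34 (SE 0.0831, limma adjusted p = 0.0990, and 0.0907 to 0.365 over 14 alternative fits).

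Kcnmb4 had 27.5 and 26.0 (EGFP), 33.9 and 31.8 (CCNY-WT) and 23.3 and 21.4 (CCNY-shRNA). Its libraries were highest in CCNY-WT and lowest in CCNY-shRNA, with EGFP between them and no overlap. Between CCNY-shRNA and CCNY-WT the log2 change was -0.56 (SE 0.0807, limma adjusted p = 0.0556). That adjusted p ranged from 0.0414 to 0.439 over the 14 alternatives and passed 0.05 in 3 of them; the highest value came without CCNY-WT replicate 1. Against EGFP the change was 0.30 in CCNY-WT (adjusted p = 0.663) and -0.26 in CCNY-shRNA (adjusted p = 0.153). The ratio of Kcnmb4 to Kcnma1 was 0.914 and 0.852 (EGFP), 1.19 and 1.27 (CCNY-WT) and 0.951 and 0.912 (CCNY-shRNA). Beta subunit transcript thus exceeded that of the pore subunit in CCNY-WT and not in the other libraries. Both genes were singled out after their values were seen.

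The 250 bases before the annotated RefSeq starts of Kcnma1 and Kcnmb4 are shown 5′ to 3′ on the strand of the gene. They come from GRCr8, a later build than the rn4 used for the FPKM values. Capitals mark GGGCGG, the core of the GC box bound by Sp-family factors, and its reverse complement CCGCCC; overlapping copies were counted. Of 33469 rat promoters, 30.5% hold it at least once in the 250 bases before the start, a share that is not matched for GC content.
Kcnma1 (chr15:351675-351924, plus strand): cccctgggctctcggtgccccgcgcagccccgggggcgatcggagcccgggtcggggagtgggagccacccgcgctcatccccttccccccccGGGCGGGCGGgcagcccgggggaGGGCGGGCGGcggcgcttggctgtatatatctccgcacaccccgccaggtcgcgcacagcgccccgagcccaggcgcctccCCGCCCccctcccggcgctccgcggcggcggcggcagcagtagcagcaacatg
Kcnmb4 (chr7:54005102-54005351, minus strand): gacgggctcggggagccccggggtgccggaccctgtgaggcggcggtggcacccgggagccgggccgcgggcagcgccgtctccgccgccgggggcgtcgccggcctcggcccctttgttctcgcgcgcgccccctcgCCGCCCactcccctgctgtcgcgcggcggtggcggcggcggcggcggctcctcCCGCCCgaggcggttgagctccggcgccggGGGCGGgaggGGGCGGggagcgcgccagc
The Kcnma1 stretch held 5 copies, 4 in the sense orientation, at a GC content of 79.6%, and the Kcnmb4 stretch held 4 copies, 2 in each orientation, at 84.4%. These are matches of letters, and binding was not measured.

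Among the other calcium- and sodium-activated genes, the sodium-activated subunit Kcnt2 was at 18.1 and 19.3 (EGFP), 16.3 and 15.2 (CCNY-WT) and 15.4 and 14.3 (CCNY-shRNA). It lay below EGFP in both conditions without overlap, by -0.25 (limma adjusted p = 0.725) and -0.33 (SE 0.0948, adjusted p = 0.132) on the log2 scale. The 3 small-conductance genes Kcnn1, Kcnn2 and Kcnn3 differed from EGFP by -0.08, 0.12 and 0.15 in CCNY-shRNA.

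All 8 tested Kir genes had negative log2 changes in CCNY-shRNA, 7 of them without overlap with EGFP, and 7 of 8 were negative in CCNY-WT. Over all genes tested, 49.8% were negative and 24.5% entirely below EGFP in CCNY-shRNA, and 48.6% were negative in CCNY-WT. The subfamily median in CCNY-shRNA was -0.24. Kcnj12, a strong rectifier, had the largest difference, with 3.88 and 4.29 (EGFP), 3.72 and 3.55 (CCNY-WT) and 3.06 and 2.80 (CCNY-shRNA). Its change was -0.48 (SE 0.162, limma adjusted p = 0.178). Kcnj4 was measured at 85.0 and 87.1 (CCNY-WT) and 79.2 and 77.6 (CCNY-shRNA). The CCNY-shRNA libraries were below both of EGFP, a change of -0.18 (SE 0.0609, adjusted p = 0.172).

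For the G protein-gated Kir subunits, which carry the slow inhibitory current of GABA-B receptors, Kcnj9 had 25.7 and 26.3 (EGFP), 23.8 and 21.2 (CCNY-WT) and 22.5 and 22.9 (CCNY-shRNA). It was lower than EGFP in both conditions without overlap, by -0.21 and -0.19 on the log2 scale (limma adjusted p = 0.725 and 0.264). Kcnj3, with 46.7 and 35.7 in CCNY-shRNA, spanned the EGFP values and was the exception to the separation of the group.

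K2P genes held differences of both signs. In CCNY-shRNA 4 of the 10 tested were above 0 and 5 below, against 50% and 49.8% of all genes tested, with a median log2 change of -0.04. Kcnk9, an acid-sensitive leak channel of the TASK group, was at 26.1 and 24.2 (EGFP), 25.2 and 24.1 (CCNY-WT) and 20.5 and 17.1 (CCNY-shRNA). Only CCNY-shRNA lay apart, by -0.43 (SE 0.103), and its limma adjusted p of 0.0952 was the lowest of all 64 genes in that comparison, with a range of 0.0515 to 0.317 over the 14 alternatives. Kcnk2, a channel opened by stretch and lipids, had 3.40 and 2.37 (EGFP), 3.52 and 2.29 (CCNY-WT) and 1.79 and 1.85 (CCNY-shRNA). This was the largest negative change of any channel gene, -0.64, yet with an SE of 0.266 and an adjusted p of 0.251, as the replicates of EGFP and of CCNY-WT were far apart. Kcnk15, a TASK relative that passes little current alone, lay highest in CCNY-shRNA, at 1.60 and 1.68 (EGFP), 2.01 and 1.88 (CCNY-WT) and 2.23 and 2.44 (CCNY-shRNA). The CCNY-shRNA change was 0.51 (SE 0.184, adjusted p = 0.195).

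In CCNY-WT 7 of 10 K2P genes were above 0, and 5 were above EGFP without overlap, against 51.3% and 20.3% of all genes tested. Kcnk13 is in both counts, but it entered the test only because its 2 CCNY-WT libraries reached an FPKM of 1. The mechanosensitive channel Kcnk4 had 6.18 and 10.2 (EGFP) against 9.48 and 11.3 (CCNY-WT), a log2 change of 0.38 (SE 0.226, limma adjusted p = 0.801) with overlapping libraries. This change rested on EGFP replicate 1, being 0.013 without it and 0.74 without EGFP replicate 2. Kcnk3, the closest relative of Kcnk9, was measured at 6.51 and 5.80 (EGFP) against 8.05 and 7.17 (CCNY-WT), a change of 0.31 (SE 0.142, adjusted p = 0.741). Kcnk13, a halothane-inhibited channel known from microglia, was at 0 and 0.646 (EGFP), 1.09 and 1.53 (CCNY-WT) and 0 and 0 (CCNY-shRNA). The study reports Kcnk13 as raised by overexpression and lowered by knockdown on these libraries, and reports that its qRT-PCR bore this out. With values under 1 set to 1, its change was 0.37 in CCNY-WT (adjusted p = 0.808) and 0 in CCNY-shRNA. The 8 microglial markers, each under 1, summed to 0.048 and 0.144 (EGFP), 0.340 and 0.389 (CCNY-WT) and 0.062 and 0.465 (CCNY-shRNA). Their part in the Kcnk13 values was not tested. When 1 was added to each value in place of the floor, the Kcnk13 change was 0.84 in CCNY-WT and -0.36 in CCNY-shRNA. With 0.1 added these changes were 2.35 and -1.45.

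Of the 9 auxiliary subunits tested, 8 were above 0 in CCNY-WT and 5 in CCNY-shRNA, where 51.3% and 50% of all genes tested were. Kcnip1, a Kv4 partner of interneurons, had 12.8 and 11.5 (EGFP), 11.7 and 15.1 (CCNY-WT) and 13.9 and 15.0 (CCNY-shRNA), with a CCNY-shRNA change of 0.26 (SE 0.141, limma adjusted p = 0.373). Kcnip2 was measured at 69.2 and 74.0 (CCNY-WT) and 79.0 and 76.6 (CCNY-shRNA), above both EGFP libraries in the latter. Kcnip3 lay at 46.1 and 44.6 (EGFP), 49.4 and 53.8 (CCNY-WT) and 39.0 and 48.7 (CCNY-shRNA). The Kcnip2 to Kcnip3 ratio was 1.52 ± 0.0894 (EGFP), 1.39 ± 0.0178 (CCNY-WT) and 1.80 ± 0.320 (CCNY-shRNA) (SD, n = 2), so that the CCNY-shRNA replicates differed more than the means. Kcnab2 differed little, with 73.0 and 73.2 (CCNY-WT) and 75.3 and 71.3 (CCNY-shRNA).

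Kcne2, a small single-pass subunit that modifies ERG and KCNQ channels, was low and variable. It had 1.21 and 1.11 (EGFP), 2.58 and 1.42 (CCNY-WT) and 1.08 and 2.29 (CCNY-shRNA). In CCNY-WT 1 library, replicate 1, held most of the change of 0.72 (SE 0.401, limma adjusted p = 0.782). In CCNY-shRNA the 0.44 (adjusted p = 0.605) turned to -0.11 without replicate 2.

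**Figure D4:**
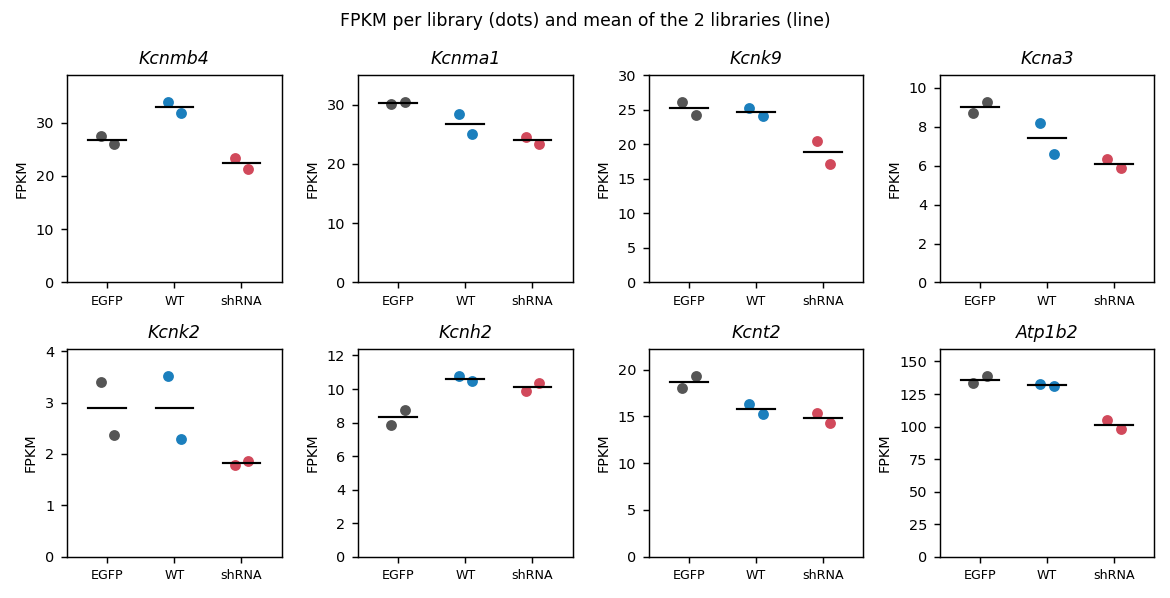
FPKM per library (dots) and group mean (line) for 7 channel genes and the sodium-potassium pump subunit Atp1b2, each with an axis from 0. Kcnmb4 is highest in CCNY-WT and lowest in CCNY-shRNA, and Kcnma1, Kcnk9, Kcna3, Kcnt2 and Atp1b2 are lowest in CCNY-shRNA.

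A total of 25 channel genes were too low to test: the 24 under 1 throughout and Kcne5, which reached 1 in a single library. For 14 of these genes the FPKM values of the libraries could be written as whole fragments to within 0.03 of a whole number, and the smallest such numbers are given here. Kcnab3, a Kv1 beta subunit, had 4 and 5 fragments (EGFP), 12 and 10 (CCNY-WT) and 5 and 4 (CCNY-shRNA). The ERG subunit Kcnh6 had 8 and 6 (EGFP), 3 and 3 (CCNY-WT) and 2 and 1 (CCNY-shRNA). Kcnj16, a Kir subunit of glia and epithelia, varied between 3 and 11 with overlap of all conditions. These numbers are too small for a comparison, and depth differed between the libraries.

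Outside the channel genes, 36 further genes that bind potassium channels or move potassium were listed, of which 34 were in the table and 31 could be tested. In CCNY-shRNA 2 of 31 passed the threshold, both lower, where 0.579% of all genes tested were called lower. Of these 1 was Atp1b2, a beta subunit of the sodium-potassium pump, which restores the potassium gradient. Atp1b2, also known as a glial adhesion molecule, had 133 and 139 (EGFP), 132 and 131 (CCNY-WT) and 105 and 97.9 (CCNY-shRNA). It fell by 0.42 on the log2 scale in CCNY-shRNA (SE 0.0566, limma adjusted p = 0.0312).

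The call was not firm. Over the 14 alternative fits Atp1b2 passed in 7, with an adjusted p of 0.0239 to 0.249 in limma with Benjamini-Hochberg adjustment, and leaving out any single library but CCNY-shRNA replicate 1 ended it. The beta subunit Atp1b1, at 1821 and 1885 (EGFP) against 1850 and 1884 (CCNY-shRNA), did not pass. Summed astrocyte markers, given above, were lower in CCNY-shRNA replicate 1 than in every other library, and their part in the Atp1b2 difference was not tested. Of the Kv1 partners, Lgi1, a secreted protein, came closest, at 96.6 and 101 (EGFP) against 80.9 and 79.7 (CCNY-shRNA) (adjusted p = 0.0738). In CCNY-WT 0 of 31 passed in limma, against 0.00982% of all genes tested. At an unadjusted p under 0.05 in limma, 1 gene, Lgi1, was lower in CCNY-WT, against 3%, and 7 were lower in CCNY-shRNA, against 9.36%. In both comparisons 0 were higher, against 3.83% and 9.2%. A log2 change below 0 was found for 22 of 31 in CCNY-WT and 23 of 31 in CCNY-shRNA, against 48.6% and 49.8%.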

How the data were processed

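The authors aligned 150-bp paired-end reads to rn4 with TopHat2 2.0 (Bowtie2 2.1.0 and SAMtools 0.1.19) and computed expression with Cufflinks 2.2.1, with versions from the submitters' processing notes. Each gene has 1 FPKM value a library in the table they deposited. Which gene annotation they used, and whether libraries were scaled to each other, is not given in the sources used here. Depth is known only relative to EGFP replicate 1, from whole multiples in low FPKM values.

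Values under 1 were set to 1 before taking log2. Tests used limma 3.58.1 in R 4.3.3 (lmFit, then contrasts.fit, then eBayes with trend) across the 6 libraries, for the 10188 genes that reached an FPKM of 1 in 2 libraries or more. Benjamini-Hochberg adjustment was applied at 0.05, and the scripts were tested on simulated data. Tables and plots were made with Python 3.11.15, pandas 2.3.3, numpy 2.4.6, scipy 1.17.1 and matplotlib 3.10.9. Named were the 5 tested members with the largest rise and the 5 with the largest fall in each condition against EGFP, the 10 highest in EGFP, the highest of each subfamily, members past both size thresholds, Kcnk13, and listed partner genes past the threshold; other names were chosen after their values were seen. The members, lists and tests were chosen with earlier results of these data known. Promoters came from RefSeq (GRCr8), where 60 of 89 members had one, too few for a comparison of promoter properties. Alternatives covered the offset, the filter, scaling, the trend, a replicate block and each library left out. Reads were not analysed here, and several genes that this rule names, or that were set aside, are not reported here.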

Additional observations from a re-analysis of the deposited data

How the results depend on the processing

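The absence of channel genes past an adjusted p of 0.05 held in CCNY-WT and CCNY-shRNA against EGFP under all 14 alternatives, and 2 genes passed in CCNY-shRNA at an adjusted p of 0.1. Between CCNY-shRNA and CCNY-WT the count became 1, Kcnmb4, when 1 or 0.1 was added in place of the floor, with a filter on mean FPKM, or at 0.1. The 2 partner genes called in CCNY-shRNA became 0 with no filter on low values, 0 with no trend and 0 to 1 with a library left out. The labels do not say whether replicate numbers pair the libraries. Correlations of replicate differences between conditions were 0.0377 to 0.0538 over all genes tested. Over the 6554 genes with a mean FPKM over 10 they were -0.0488 to 0.183, highest between CCNY-WT and CCNY-shRNA. With the replicate block 1 of the 2 partner genes was called. The 16 channel genes past 0.33 became 9 with 1 added, 29 with 0.1 added and 10 to 16 with a library left out. The 7 past 0.3 in CCNY-WT became 21 with 0.1 added and 7 to 12 with a library left out. The median change in CCNY-shRNA was -0.0016 with no filter, which adds genes held at the floor, and -0.14 to -0.09 with a library left out; that in CCNY-WT was -0.032 to 0.0091, positive without CCNY-WT replicate 2. Signs turned in CCNY-shRNA for Kcne2 (-0.11 to 0.98 with a library left out, lowest without CCNY-shRNA replicate 2) and Kcnh4 (-0.0075 to 0.81, lowest without EGFP replicate 1); the cause was not tested. Kcnk13, at 0 in CCNY-shRNA since all its values there and in EGFP lay under the floor, gave -0.36 and -1.45 with 1 or 0.1 added. Its CCNY-WT change of 0.37 became 0.84 and 2.35. Upper quartile scaling, added after seeing the data for subfamily sums, moved the auxiliary sum in CCNY-shRNA to 3.49%. With 2 libraries a condition, genes near an FPKM of 1 were the least precise.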
